A study of Rattus norvegicus with 6 samples.

Results

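The genes described here encode collagens, laminin chains, integrin subunits with a numbered name and fibronectin. They were taken from the gene table by name, and 73 of its 35362 gene rows were members: 43 collagen, 11 laminin and 18 integrin genes, and Fn1. Another 3 genes that the name patterns match, Col2a1, Itga5 and Itgb7, were left out because they lie in a stretch of chromosome 7 where neighbouring genes are lowered in S487D cells. The cells were INS-1, an insulin-secreting line from a rat insulinoma that stands in for pancreatic beta cells in many studies, and their mRNA was sequenced. The cells of 3 libraries overexpressed menin S487D, in which the serine is replaced by acidic aspartate, and those of 3 libraries overexpressed menin S487A, in which alanine, a residue without the hydroxyl group that phosphorylation needs, takes its place. Men1 encodes menin, a scaffold protein of histone methyltransferase complexes in the nucleus. In both groups the mutant was delivered as Flag-tagged menin by a retrovirus of the pMX-puro type, and both groups were grown in the same supplemented RPMI1640 medium. The labels do not say whether the libraries of a group came from separate transductions or cultures, or how many transduced cells founded each population, so the spread behind each p-value is that between these libraries and may be technical. Wild-type menin and untransduced cells were not analysed here, and each difference is thus one between the mutants together with the cell populations that carry them.

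Collagens and laminins are secreted chains that assemble into matrix, laminins into heterotrimers of an alpha, a beta and a gamma chain that form basement membranes together with type IV collagen. Fibronectin, the product of Fn1, is a secreted glycoprotein that cells assemble into fibrils through integrins. Integrins are surface receptors made of an alpha and a beta subunit that link matrix to the actin cytoskeleton. In pancreatic islets, much of the basement membrane is made by endothelial cells of the capillaries, and beta cells attach to it through integrins that contain the Itgb1 subunit. The labels name no cell type other than INS-1 in these cultures.

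Libraries held 9444801 to 10253573 reads assigned to listed genes in S487D and 10037113 to 10867549 in S487A, worked out from RPKM (assigned reads scaled to gene length in kilobases and to library depth) and gene length. Men1 was read at 113, 103 and 119 RPKM in S487D and 71.2, 76.7 and 75.0 RPKM in S487A. Of 12527 genes tested across the table, 5564 (44.4%) passed the test (limma on log2(RPKM + 1), Benjamini-Hochberg adjusted p under 0.05), 2523 (20.1%) higher and 3041 (24.3%) lower in S487D. That split was 3512 higher and 2453 lower after median centring, and 3096 and 2492 after quantile normalization. Men1 itself was called higher in S487D (log2 change 0.58, limma adjusted p = 2.89e-05). The 40 tested genes around it, 20 on each side, had a median log2 change of 0.22. The groups thus differ in Men1 mRNA as well as in the mutation, and the part of either in the changes of the members was not tested. Of the beta cell markers Ins1, Ins2, Iapp, Chga, Pdx1, Nkx6-1, Nkx2-2, Neurod1, Isl1 and Slc2a2, 10 of 10 were detected, and these markers of the line's own cell type moved too, 6 higher and 4 lower in S487D. Ins1, an insulin gene, averaged 16700 ± 551 RPKM in S487D and 4683 ± 292 RPKM in S487A (SD, n = 3 each), and Nkx6-1, a beta cell transcription factor, averaged 4.42 ± 0.434 RPKM in S487D and 10.1 ± 0.531 RPKM in S487A. The 10 summed to 20840 to 21970 RPKM per library in S487D and 8863 to 9482 in S487A, and their part in the changes of the members was not tested. A gene listed at 0 is not read as silent, because Crkl and Cd151, which many cell types use, were listed at 0 in every library too.

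Most matrix genes were hardly read in INS-1 cells of either group. Of the 73 members, 8 were listed at 0 in every library, among them Col3a1, a major fibrillar collagen of connective tissue, Col15a1 and the laminin gene Lama4. At most 3 reads were found in any library for 24 members, those 8 included. Col1a1, a chain of type I collagen, had 9 reads in S487D and 9 in S487A over the 3 libraries of each group. The test took the 13 members with at least 1 RPKM in at least 3 libraries: Fn1, the laminin genes Lama5, Lamb1, Lamb3 and Lamc1, the integrin genes Itga3, Itga6, Itgb1 and Itgb5, and the collagen genes Col5a3, Col6a2, Col6a6 and Col9a1. Col6a6 passed this filter through its S487D libraries alone. The other 60 members were not tested in this fit.

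Fibronectin mRNA was higher in S487D, and every other tested member that was called was lower. Fn1 was the 1 tested member called higher in S487D, while 8 were called lower and 4 passed no test, beside 20.1% and 24.3% of all genes tested called higher and lower. The median log2 change of the 13 was -0.31, and that of all genes tested was -0.01. At 1.5-fold or more, 1 member (Fn1) was higher and 3 (Lama5, Lamb3 and Col6a2) were lower, beside 2.05% and 6.20% of all genes tested. The counts of higher and lower members were 2 and 7 after median centring and 3 and 7 after quantile normalization. Col6a6, which passed the filter through its S487D libraries alone, was among those higher in both. Because 1 is added to each RPKM before the log, folds and log2 changes given for tested genes understate the change of genes near 1 RPKM. Col5a3 and Itga6, called lower, stayed under 1.5-fold on this scale, with S487D means at 0.566 and 0.602 of their S487A means. By the medians of neighbouring genes, none of these 13 lay in a wide shifted stretch of a chromosome. The tested genes around each member, up to 20 on each side, had median log2 changes between -0.107 and 0.065. These were 40 genes for each member but Itgb1 (22) and Lamb3 (24). Such medians can miss a shorter shifted stretch. The groups did not overlap for 11 of the 13, beside 54.6% of all genes tested.

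**Figure D1:**
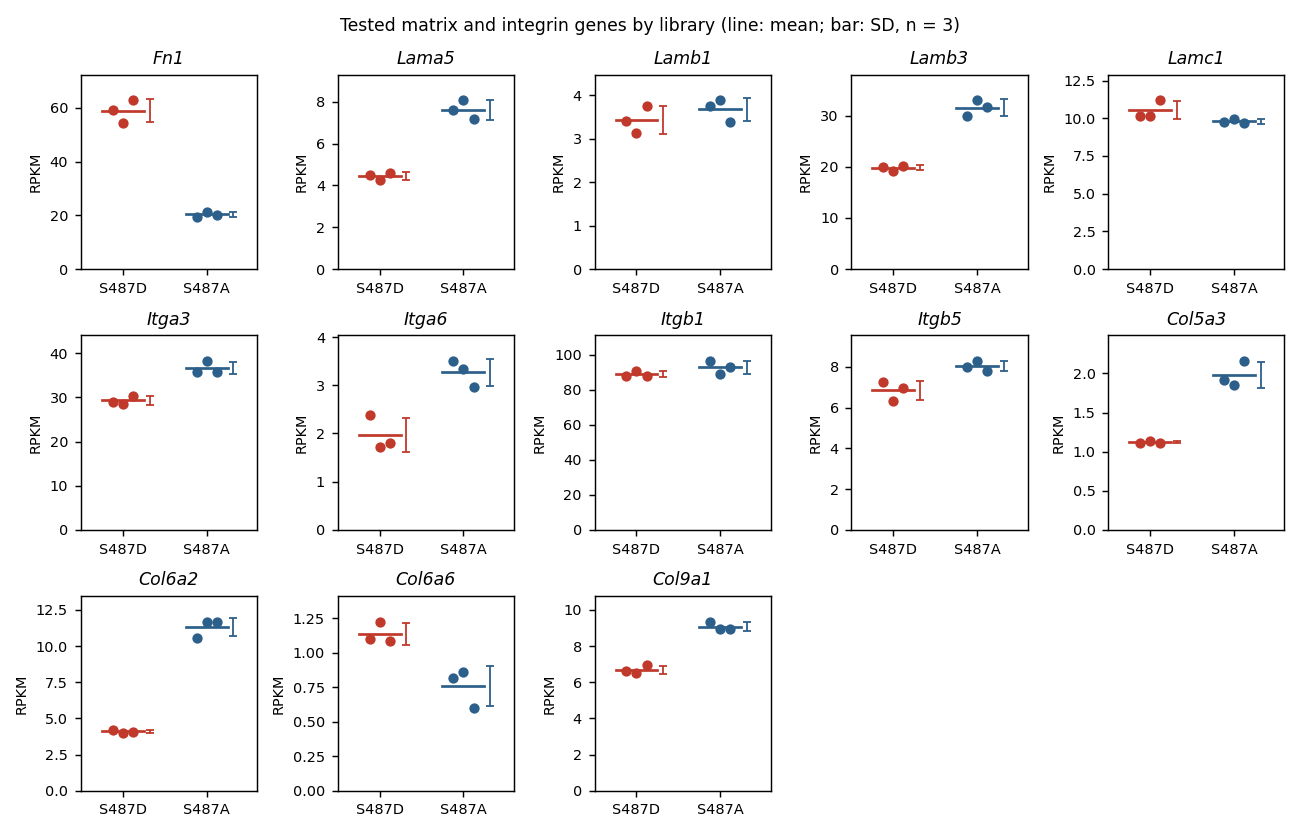
RPKM of each of the 13 tested members in the 3 S487D and 3 S487A libraries (points), with the group mean (line) and SD (bar), each vertical axis starting at 0. Fn1 is higher in S487D without overlap, Lama5, Lamb3 and Col6a2 are lower without overlap, and Itgb1 and Lamb1 overlap between the groups.

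Fn1, on chromosome 9 from 78900111 to 78969015 on the minus strand (rn6), had 59.4, 54.5 and 63.0 RPKM in S487D and 19.6, 21.3 and 20.1 RPKM in S487A. Each S487D library was above every S487A library, by a wide gap. The mean was 59.0 ± 4.24 RPKM in S487D and 20.3 ± 0.907 RPKM in S487A (SD, n = 3 each). This was a rise of 1.49 in log2 terms (SE 0.059, limma adjusted p = 1.05e-07). These values rest on 14361 reads in S487D and 5287 in S487A. With 3 libraries a group, the smallest two-sided p that an exact permutation test can reach for any gene is 0.1. Its 40 tested neighbours had a median log2 change of -0.04, so Fn1 stood apart from the genes around it. The rise of Fn1 was about as large as the summed falls of the other members: the RPKM of all 73 members summed to 238.0 to 250.1 per library in S487D and 243.6 to 247.9 in S487A, ranges that overlap.

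Among laminin genes, Lama5 and Lamb3 fell in S487D, while the values of Lamb1 and Lamc1, which encode widely used beta and gamma chains, passed no test. The promoters of the genes that fell are given here so that their sequences can be compared, from RefSeq's GRCr8 build of the rat genome, a build other than the rn6 of the expression table. Each runs from 250 bases before the gene's start to 50 bases after it, 5′ to 3′ on the gene's strand. Capitals mark the full cAMP response element TGACGTCA in Lamb3 (chr13:107362303-107362602, plus strand) and the GC box GGGCGG, or CCGCCC on the other strand, in Lama5 (chr3:187695925-187696224, minus strand).
Lamb3: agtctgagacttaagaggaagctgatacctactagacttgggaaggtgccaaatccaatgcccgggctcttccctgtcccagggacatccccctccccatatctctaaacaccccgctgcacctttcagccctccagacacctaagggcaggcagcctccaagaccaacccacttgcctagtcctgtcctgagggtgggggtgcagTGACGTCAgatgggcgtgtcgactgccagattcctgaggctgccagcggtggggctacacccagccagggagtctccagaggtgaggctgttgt
Lama5: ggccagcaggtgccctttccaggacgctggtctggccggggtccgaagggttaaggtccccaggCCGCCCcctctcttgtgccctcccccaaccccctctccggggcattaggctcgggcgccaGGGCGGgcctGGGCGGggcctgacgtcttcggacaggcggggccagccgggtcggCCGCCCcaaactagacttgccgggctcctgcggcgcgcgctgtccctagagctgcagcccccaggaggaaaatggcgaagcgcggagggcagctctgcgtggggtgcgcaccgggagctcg

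Of the 13 tested members, 10 had a promoter entry, and these were searched on both strands. The letters TGACGTCA were found in 1, Lamb3, starting 44 bases before the gene's start, and in 1.83% of the 33469 promoters of that table. The GC box was found in 7 of the 10 (Lama5, Lamb1, Lamc1, Col5a3, Col6a6, Itga3 and Itgb1) and in 33.1% of all promoters. Of the genes called lower, Lama5 held it 4 times, Col5a3 3 times and Itga3 2 times. Of the genes not called, Lamc1 held it 5 times, Itgb1 4 times, and Lamb1 and Col6a6 2 times each. The AP-1 site TGANTCA and the TATA box TATAAA were found in 0 of the 10, beside 7.33% and 14.2% of all promoters. The 33469 promoters were not limited to genes read in INS-1 cells, while the 10 belong to genes that passed the RPKM filter. These shares thus compare unlike sets. A match is a description of the letters and does not show that a factor binds there.

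Lamb3, a beta chain best known from the laminin of epithelial anchoring structures, had 19.96, 19.3 and 20.2 RPKM in S487D and 29.9, 33.1 and 31.8 RPKM in S487A. The groups did not overlap, and S487D libraries were close to each other. Lamb3 lies on chromosome 13 from 112031635 to 112073187 on the plus strand (rn6), and its log2 change was -0.65 (SE 0.051, limma adjusted p = 8.66e-06). Lama5, on chromosome 3 from 175553042 to 175601112 on the minus strand, encodes an alpha chain of mature basement membranes. It had 4.51, 4.26 and 4.61 RPKM in S487D and 7.61, 8.10 and 7.16 RPKM in S487A. Its groups did not overlap either, and the log2 difference was -0.66 (SE 0.068, limma adjusted p = 5.25e-05).

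Lamc1, the common gamma chain, averaged 10.5 ± 0.604 RPKM in S487D and 9.81 ± 0.158 RPKM in S487A (SD, n = 3 each), with a log2 change of 0.09 (limma adjusted p = 0.238). Lamb1 averaged 3.42 ± 0.316 RPKM in S487D and 3.67 ± 0.258 RPKM in S487A, with a log2 change of -0.08 (limma adjusted p = 0.476). Lamb1 turned to 0.02 after quantile normalization, and Lamc1 passed the threshold there (limma adjusted p = 0.0460, within 0.0460 to 0.580 over 15 alternatives). Lama3, an alpha chain that assembles with Lamb3 in epithelial laminin, was near 0 and reached at most 0.0468 RPKM in any library. Summed over the 11 laminin genes, RPKM ran from 37.0 to 40.0 per library in S487D and from 51.5 to 55.5 in S487A.

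Of the integrin genes tested, 3 alpha or beta subunits were called lower in S487D, and Itgb1, the main beta subunit, was not called. Itgb1 was the member with the highest level in both groups, at 87.6, 90.6 and 88.0 RPKM in S487D and 96.4, 89.2 and 92.8 RPKM in S487A. The groups overlapped, and the log2 change was -0.06 (SE 0.041, limma adjusted p = 0.243). The Itgb1 row overlaps another listed transcript of up to 16.4 RPKM on the same strand, so its value is uncertain by the reads that these rows may share.

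Itga3, an alpha subunit that pairs with Itgb1 to bind laminins, had 29.0, 28.6 and 30.4 RPKM in S487D and 35.8, 38.3 and 35.8 RPKM in S487A. The groups did not overlap, and the log2 difference was -0.31 (SE 0.047, limma adjusted p = 5.66e-04). Itga6, another laminin-binding alpha subunit, had 2.37, 1.72 and 1.80 RPKM in S487D and 3.51, 3.33 and 2.97 RPKM in S487A. Its groups did not overlap, and it fell by 0.53 on the log2 scale (SE 0.10, limma adjusted p = 0.00263). Itgb4, the beta subunit that pairs with Itga6 in hemidesmosomes, was below the filter, with 7 reads in S487D and 20 in S487A over the 3 libraries of each group.

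Itgb5, a beta subunit that pairs with Itgav, averaged 6.85 ± 0.473 RPKM in S487D and 8.04 ± 0.254 RPKM in S487A (SD, n = 3 each), with a log2 change of -0.20 (limma adjusted p = 0.0314). This call was lost without S487D replicate 2 (0.0990), S487D replicate 3 (0.0571), S487A replicate 1 (0.0630), S487A replicate 2 (0.0935) or S487A replicate 3 (0.0505), and after median centring (0.0865), quantile normalization (0.159) or without a filter (0.0615), within 0.0181 to 0.159 over 15 alternatives. Itgav, whose name the selection does not take, averaged 7.22 ± 0.684 RPKM in S487D and 6.53 ± 0.289 RPKM in S487A, and passed no test (log2 change 0.12, limma adjusted p = 0.218). Itga5, the alpha subunit of the main fibronectin receptor and one of the 3 genes left out for its position, had 0.865, 0.956 and 0.723 RPKM in S487D and 1.61, 1.55 and 1.73 RPKM in S487A, and the median log2 change of its 23 tested neighbours was -0.43.

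Collagen genes with measurable mRNA mostly encode chains of minor collagens, and 3 of the 4 tested fell in S487D. Col6a2, a chain of the beaded filament collagen type VI, on chromosome 20 from 12773474 to 12801179 on the plus strand (rn6), had 4.22, 4.02 and 4.05 RPKM in S487D and 10.6, 11.7 and 11.6 RPKM in S487A. The S487D libraries lay together, far below every S487A library. Its log2 change was -1.27 (SE 0.064, limma adjusted p = 4.96e-07), from 620 reads in S487D and 1826 in S487A. The median log2 change of its 40 tested neighbours was 0.01. Of the other type VI chains, Col6a1 and Col6a3 were at or near 0, with 1 read of Col6a1 in S487D and 0 in S487A, and 0 reads of Col6a3 in S487D and 4 in S487A.

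Col6a6, another type VI chain, had 1.10, 1.22 and 1.08 RPKM in S487D and 0.814, 0.862 and 0.596 RPKM in S487A. The S487D libraries were higher without overlap, but the log2 change of 0.28 passed no test (SE 0.10, limma adjusted p = 0.0503). It passed after median centring (limma adjusted p = 0.0262), after quantile normalization (0.00858), without an intensity trend (0.0148) and with voom on reads (0.00147), within 0.00147 to 0.158 over 14 alternatives. Col6a6 entered each of the fits in which it passed through its S487D libraries alone. In the voom fit described below, which takes genes by mean reads, its log2 change was 0.59 (limma voom adjusted p = 0.00140).

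Col9a1, a chain of type IX collagen of cartilage and eye, had 6.60, 6.50 and 6.94 RPKM in S487D and 9.35, 8.95 and 8.93 RPKM in S487A. It fell by 0.39 on the log2 scale without overlap of the groups (SE 0.058, limma adjusted p = 5.32e-04). Its partner chains Col9a2 and Col9a3 reached at most 0.294 and 0.122 RPKM. Col5a3, a chain of the fibrillar collagen type V, had 1.12, 1.13 and 1.11 RPKM in S487D and 1.92, 1.85 and 2.16 RPKM in S487A. The groups were well apart for its level, and it fell by 0.49 on the log2 scale (SE 0.089, limma adjusted p = 0.00170). Summed over the 43 collagen genes, RPKM ran from 16.8 to 17.4 per library in S487D and from 27.5 to 28.9 in S487A.

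**Figure D2:**
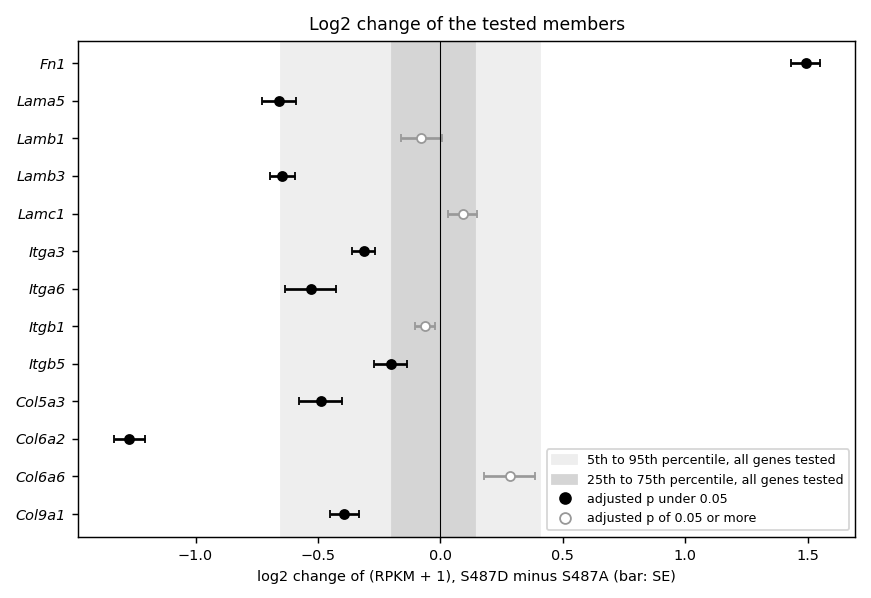
Log2 change of (RPKM + 1), S487D minus S487A, of the 13 tested members (points, bar: SE), filled where the adjusted p is under 0.05, with the 5th to 95th and 25th to 75th percentiles of all genes tested as grey bands. Fn1 (1.49) and Col6a2 (-1.27) lie farthest from 0, and Lama5 (-0.66) sits at the edge of the wider band, which runs from -0.65 to 0.41.

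Below the RPKM filter, members with enough reads to compare were also mostly lower in S487D. A further fit, limma voom on reads, took genes with a mean of at least 10 reads over the 6 libraries, whichever group held the reads. It was chosen after seeing the data. It added 16 members below the RPKM filter, of which 1 was called higher, 9 lower and 6 passed no test. Among all 1381 genes of that kind, 8.62% were called higher and 21.4% lower (30.1% in all), and the median log2 change was -0.19 for all of them and -1.04 for the 16 members. The groups did not overlap for 10 of the 16, beside 40.6% of all genes of that kind. These 10 calls rest on few reads, 12 to 76 per member in S487D and 36 to 122 in S487A. Lamc3, Col22a1, Col28a1, Col5a2, Itga2, Col18a1 and Itga1 had 12 to 29 reads over the 3 S487D libraries. They reached the cut of a mean of 10 only through their S487A reads, so their calls have that limit.

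Itga2, the alpha subunit of a main collagen receptor, had 8, 7 and 8 reads in S487D and 31, 32 and 40 in S487A, at a log2 difference of -1.99 (SE 0.30, limma voom adjusted p = 1.21e-06). Every S487D library was far below every S487A library. Itga2b, the alpha subunit of the platelet fibrinogen receptor, had 12, 17 and 18 reads in S487D and 39, 51 and 32 in S487A (log2 change -1.26, limma voom adjusted p = 1.32e-04). Itga1, another collagen-binding alpha subunit, had 14, 9 and 6 reads in S487D and 32, 24 and 13 in S487A. Its groups overlapped, and its row holds the gene Pelo, read at up to 40.7 RPKM, so its call (limma voom adjusted p = 0.0103) is uncertain.

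Lamc3, a rarer laminin gamma chain, had 4, 4 and 4 reads in S487D and 16, 14 and 20 in S487A (log2 change -1.82, limma voom adjusted p = 1.38e-04). Among collagens, Col28a1 had 3, 5 and 8 reads in S487D and 19, 21 and 18 in S487A, and the fibrillar chains Col5a2 and Col11a2 fell by 1.59 and 1.19 on the log2 scale (limma voom adjusted p = 5.45e-04 and 3.69e-04). Col18a1, whose product carries the endostatin fragment of basement membranes, fell by 0.98 (limma voom adjusted p = 0.00768), and Col22a1 fell by 1.87 (limma voom adjusted p = 8.37e-04). Each of these 5 collagen genes was lower in all S487D libraries than in any S487A library. Col16a1, a collagen that associates with fibrils, was the 1 of the 16 called higher, with 31, 23 and 22 reads in S487D and 10, 10 and 16 in S487A (log2 change 1.17, limma voom adjusted p = 0.00104).

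The 6 not called were Col4a1, a main chain of basement membrane collagen (log2 change -0.19), Col10a1 (-0.33), Col20a1 (-0.52), Col27a1 (0.23), Itga4 (0.06) and Itgb3 (0.61). Col10a1 lies on chromosome 20 within the row of Nt5dc1, and its 40 tested neighbours had a median log2 change of -0.51. Of the other 44 members, which had a mean under 10 reads, 20 had more than 3 reads in some library. Their reads were too few for this fit: Itga9, an alpha subunit that binds tenascin and other matrix proteins, had 40 reads in S487D and 3 in S487A over 3 libraries each, Col17a1, a transmembrane collagen of hemidesmosomes, had 8 in S487D and 42 in S487A, Col8a2 had 10 in S487D and 42 in S487A, and Col4a2 had 5 in S487D and 26 in S487A. The Itga9 row overlaps Ctdspl, read at up to 6.14 RPKM on the same strand, so the reads of Itga9 are uncertain. The remaining members that reached 0.3 RPKM in any library without a fit were Col4a4, with at most 0.643 RPKM, and Itgb2, with at most 0.378 RPKM.

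**Figure D3:**
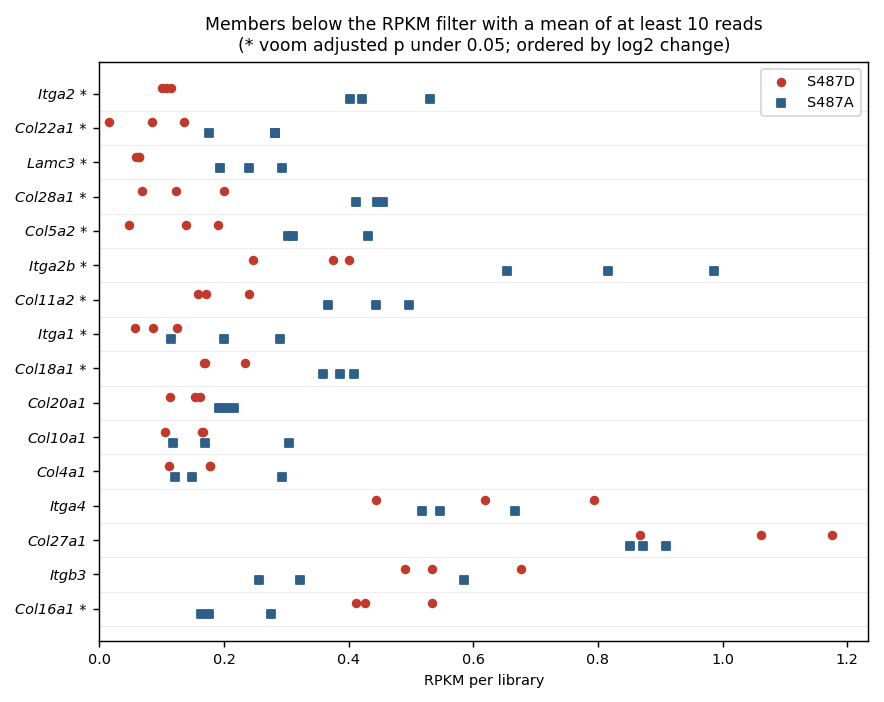
RPKM in each library of the 16 members below the RPKM filter that had a mean of at least 10 reads, S487D (circles) above S487A (squares) for each gene, ordered by log2 change, with an asterisk where the voom adjusted p is under 0.05. The S487D libraries lie to the left of the S487A libraries in most rows from Itga2 down to Col18a1, and to the right of them for Col16a1.

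**Figure D4:**
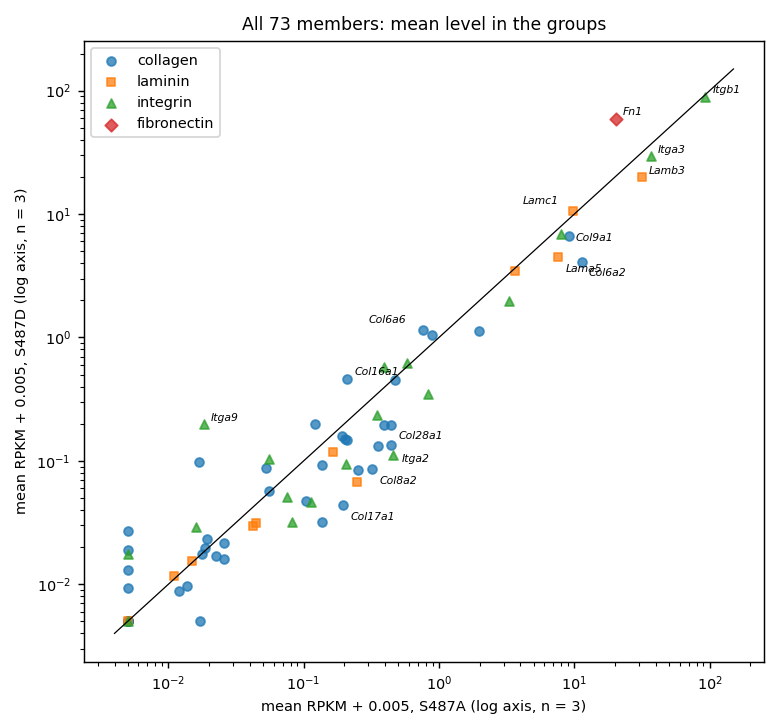
Mean RPKM in S487D (vertical) against S487A (horizontal) of all 73 members, on log axes with 0.005 added to both means and a line of equality. Fn1 stands above the line, Col6a2 and Lamb3 below it, and Itgb1 (88.7 RPKM in S487D and 92.8 in S487A) near it; most collagen genes are below 1 RPKM in both groups.

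Enzymes that modify and process collagen changed in both directions. Of 16 tested genes of collagen synthesis and secretion, 7 rose, 5 fell and 4 passed no test, beside 20.1% higher and 24.3% lower among all genes. Their median log2 change was 0.15, beside -0.01 for all genes tested. Bmp1, a protease that trims procollagen, averaged 8.63 ± 0.411 RPKM in S487D and 21.6 ± 0.174 RPKM in S487A (SD, n = 3 each; log2 change -1.23, limma adjusted p = 1.58e-07). Its relative Tll1 went the other way, at 17.9 ± 1.17 RPKM in S487D and 10.9 ± 0.435 RPKM in S487A (limma adjusted p = 2.27e-05). Pcolce, which enhances that trimming, fell to 1.23 ± 0.0559 RPKM in S487D, against 3.62 ± 0.334 RPKM in S487A.

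P4ha1, a catalytic subunit of collagen prolyl hydroxylase, averaged 5.56 ± 0.325 RPKM in S487D and 12.6 ± 0.185 RPKM in S487A. Its 40 tested neighbours had a median log2 change of -0.42, so the genes around it were lowered too. P4hb, the other subunit of that enzyme and a general disulfide isomerase of the endoplasmic reticulum, rose 1.24-fold, and Ppib, a proline isomerase that helps collagen fold, rose by 0.38 on the log2 scale, in a row that overlaps Snx22.

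Among 5 tested basement membrane partners, Nid2, a nidogen that bridges laminin and type IV collagen, averaged 0.487 ± 0.110 RPKM in S487D and 2.42 ± 0.0194 RPKM in S487A (SD, n = 3 each). Nid2 passed the RPKM filter through its S487A libraries alone, so its limma call has that limit; in the voom fit that takes genes by mean reads, its log2 change was -2.30 (limma voom adjusted p = 1.03e-11). Fbln1 fell 1.36-fold and Smoc1 rose 1.38-fold. The other 2, Agrn and Pxdn, were not called, and the 5 had a median log2 change of -0.11. Of 8 other matrix glycoproteins and proteoglycans tested, 3 rose, 1 fell and 4 were not called, at a median log2 change of 0.12. The shares over all genes tested were 20.1% higher and 24.3% lower. Tnr, a tenascin of the nervous system, rose 1.41-fold, and Emilin1, a glycoprotein of elastic fibres, fell by 0.58 on the log2 scale. Fbn2, which passed the RPKM filter through its S487D libraries alone, and Ltbp3 were 1.24-fold and 1.14-fold higher, calls that were each lost without several single libraries: Fbn2 without S487D replicate 1 or 2 or any S487A replicate, at adjusted p from 0.0585 to 0.131, and Ltbp3 without S487D replicate 1 or 3 or S487A replicate 1 or 3, at 0.0548 to 0.0774. Over all alternatives, the adjusted p ran from 4.98e-04 to 0.131 for Fbn2 and from 0.00279 to 0.0774 for Ltbp3, whose row also overlaps another gene. The 40 tested neighbours of Ltbp3 had a median log2 change of 0.18, about its own. In the voom fit by mean reads, Fbn2 had a log2 change of 0.63 (limma voom adjusted p = 4.67e-04).

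Of the 14 other receptors of matrix tested, 4 were higher, 4 lower and 6 not called, at a median log2 change of 0.02. Among all genes tested, 20.1% were called higher and 24.3% lower. Bcam, a surface receptor that binds the laminin chain of Lama5, averaged 134 ± 2.83 RPKM in S487D and 281 ± 8.91 RPKM in S487A (log2 change -1.06, limma adjusted p = 6.52e-08). Bcam and Lama5 both fell. Gpc4, a glypican, rose to 78.4 ± 0.318 RPKM in S487D, against 37.7 ± 2.76 RPKM in S487A (log2 change 1.04, limma adjusted p = 5.06e-07). Of the syndecans, Sdc1 rose 1.44-fold and Sdc2 fell 1.41-fold. Ddr1, a collagen-binding receptor kinase, rose by 0.27 on the log2 scale. Itgal, a leukocyte integrin subunit, averaged 0.575 ± 0.118 RPKM in S487D and 1.77 ± 0.350 RPKM in S487A, and passed the RPKM filter through its S487A libraries alone. In the voom fit by mean reads its log2 change was -1.60 (limma voom adjusted p = 1.63e-07).

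Of 28 tested adaptors of integrins and focal adhesions, 5 rose, 11 fell and 12 passed no test, with a median log2 change of 0.01. Beside these stand 20.1% of all genes tested called higher and 24.3% called lower. Lims1, an adaptor in the complex with integrin-linked kinase, fell 1.55-fold, among 40 tested neighbours with a median log2 change of -0.35. Rap1a, a GTPase that activates integrins, fell 1.46-fold and the kinase gene Src fell 1.29-fold. Zyx and Pxn, which encode the focal adhesion proteins zyxin and paxillin, rose 1.42-fold and 1.23-fold, and Vasp, an actin regulator, rose 1.25-fold. The Zyx and Src rows overlap other transcripts. Among genes not called were Tln1, Ptk2, Ilk and Fermt2, which encode talin, focal adhesion kinase, integrin-linked kinase and a kindlin, with log2 changes from 0.01 to 0.03.

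Matrix proteases and their inhibitors held 12 tested genes, of which 1 rose, 4 fell and 7 were not called, at a median log2 change of -0.07. For this list and the next, the shares over all genes tested were 20.1% higher and 24.3% lower. Timp2, an inhibitor of matrix metalloproteinases, rose 1.40-fold, and Adam9 and Adam17, surface proteases, fell 1.45-fold and 1.32-fold. Of 13 tested genes on a list of TGF-beta ligands, receptors, SMADs and SMAD repressors, limma called 0 higher and 3 lower, at a median log2 change of -0.02. At an unadjusted p under 0.05, limma had 0 higher. Voom on reads also called 0 higher, and it called those 3 genes lower too. Tgfbr2 and Bmpr2 were listed at 0 in every library. These mRNA levels do not measure the activity of TGF-beta signalling, whose part in the changes of the members was not tested. Skil, which encodes a repressor of SMADs, the receptor gene Acvr1b and Smad5 were those called lower. Skil and Acvr1b fell 1.94-fold and 1.73-fold, beside median log2 changes of -0.71 and -0.56 of their tested neighbours, and Smad5 fell 1.21-fold.

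**Figure D5:**
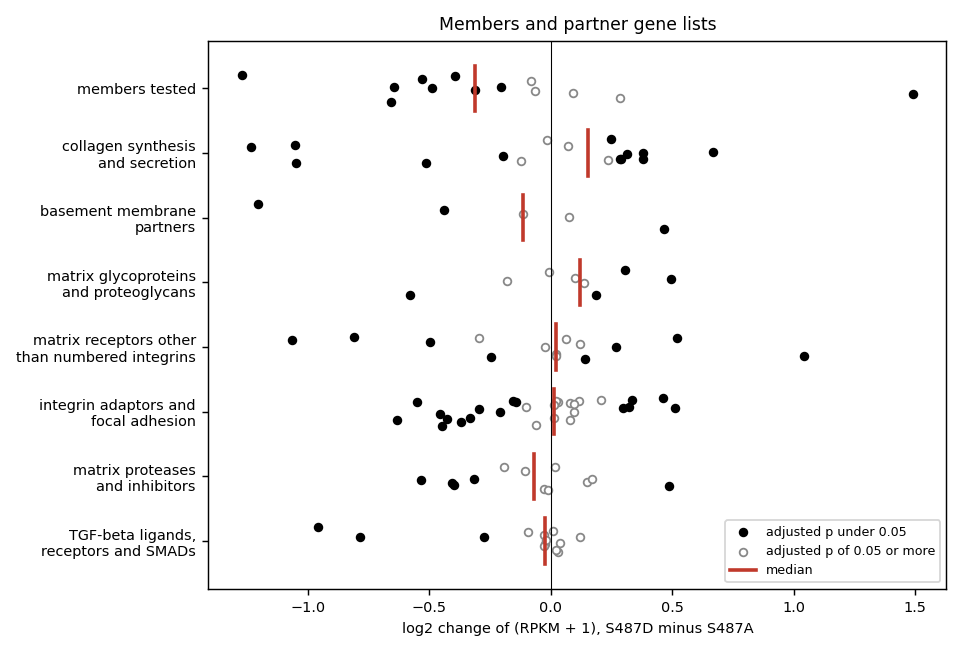
Log2 change of (RPKM + 1), S487D minus S487A, of the 13 tested members and of the tested genes of 7 partner lists (points, filled where the adjusted p is under 0.05; red line: median). The members' median is -0.31, and the lists' medians run from -0.11 (basement membrane partners) to 0.15 (collagen synthesis and secretion).

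Markers of other cell types that make matrix were mostly at or near 0. Of 11 fibroblast and pericyte markers, 4 (Pdgfrb, Dcn, Lum and Rgs5) were listed at 0 in every library, and Pdgfra reached at most 1.17 RPKM. Their RPKM summed to 97.5 to 105 per library in S487D and 66.8 to 71.0 in S487A, nearly all of it Thy1, which nerve cells also express, at 99.6 ± 3.86 RPKM in S487D and 66.2 ± 2.08 RPKM in S487A. Of 8 endothelial markers, 4 (Cdh5, Tie1, Emcn and Flt1) were listed at 0, and the sums were 0.305 to 0.327 RPKM in S487D and 0.238 to 0.516 RPKM in S487A. Of the leukocyte markers, Ptprc and Tyrobp were listed at 0, and the list summed to 0.612 to 1.07 RPKM in S487D and 0.533 to 1.17 RPKM in S487A. The 6 duct cell markers summed to 81.0 to 84.9 RPKM in S487D and 208 to 227 RPKM in S487A, nearly all of it the keratin gene Krt7, whose 40 tested neighbours had a median log2 change of -0.56, while Krt19 reached at most 0.505 RPKM, Cftr at most 0.0282 RPKM, and Spp1 was listed at 0. The part of Thy1-positive or Krt7-positive cells in the changes of the members was not tested. In bulk RNA, fewer cells with a transcript and less transcript per cell cannot be told apart.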

How the data were processed

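Libraries of INS-1 cells carrying menin S487D (n = 3) or S487A (n = 3) were grouped by sample title. Per the labels' protocols, Trizol was used for RNA and a TruSeq RNA kit for the libraries; such libraries carry no strand information. The submitters' processing notes name bcl2fastq 2.17, cutadapt, TopHat2 2.0.13 and the build rn6 (Rnor_6.0). Read counter and annotation: not given in the sources used here. As deposited by the authors, values are RPKM per gene and library, with position, strand and length, per the file headers. Multiplied by length, RPKM came in whole steps (within 0.05 of a read for 100% of values no higher than 2000 reads), which gave the reads per gene; a single read per kilobase equals 0.0920 to 0.106 RPKM. Libraries of the same group were not duplicates: chi-square of their reads was 1.36 to 1.88 times (median over genes) that of counting error.

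The test was that of limma 3.58.1, run in R 4.3.3 on log2(RPKM + 1) over the 12527 genes reaching RPKM 1 in 3 or more libraries, with an intensity trend and Benjamini-Hochberg adjustment over all of them. The design foresaw a count model only for a table of raw counts. The fits were also run on simulated data in which far fewer genes changed than were called here, and the outcome is not reported here. Members, gene lists and tests were chosen with earlier results of these data known. Members past the threshold by 1.5-fold or more, and Fn1, have full values; other tested members have values or means, and up to 3 called genes per direction are named from each partner list; some genes are not reported here. Other genes named (Itgav, Agrn, Pxdn, Tln1, Ptk2, Ilk, Fermt2, members with few reads and markers) were chosen after their values were seen. Alternatives were pseudocounts of 0.1 and 0.01, no filter or one at RPKM 5, median centring, quantile normalization, no trend, a replicate block, limma voom on reads, and each library left out. All 73 member symbols are current in RefSeq. Python 3.11.15, pandas 2.3.3, numpy 2.4.6 and matplotlib 3.10.9 were used.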

Additional observations from a re-analysis of the deposited data

How the results depend on the processing

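Of the 9 calls among the members, 8 were kept in every alternative that tested the gene, Itgb5 being the exception. With 1 called higher and 8 lower among the members as reported, the number called higher was 2 after median centring, without an intensity trend and with voom, and 3 after quantile normalization and without a filter. Col6a6, which passed the RPKM filter through its S487D libraries alone, was among those higher in all of these but the fit without a filter. Without a filter, 65 members were tested and 18 were called lower. The members' median log2 change was -0.2548 after median centring and -0.0215 without a filter, where most added members are near 0 RPKM and a pseudocount of 1 holds their change near 0. Leaving out single libraries gave 1 member called higher, 7 to 8 lower and a median of -0.3373 to -0.2813. Lamb1 turned to 0.0224 after quantile normalization (the cause was not tested). Of 32 partner genes that the rule takes, 30 kept their call in every alternative, Fbn2 and Ltbp3 not. Same-numbered libraries of the groups did not deviate together (r = -0.0598 to 0.00998), so the numbers do not pair them. With the replicate block, 1 member was called higher and 7 lower, Itgb5 passing the threshold no more (log2 change -0.204, adjusted p = 0.0509), and Fbn2 was at 0.0546. Over all genes the block gave 2369 called higher and 2966 lower. Depth limits the members below 1 RPKM, where few reads back each value.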
